A study of Mus musculus with 42 samples.

Results

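The libraries described here are 4 of the 42 columns of an mRNA sequencing table from mouse embryonic stem cell lines grown as embryoid bodies. They carry headings of day 4, day 8 or day 12 and were selected on Pou5f1 above 300 RPKM (reads scaled by transcript length and by library depth) and Afp at 0. Pou5f1 encodes the core pluripotency factor OCT4, and Afp encodes alpha-fetoprotein of the visceral endoderm. The 4 member libraries are those headed W2 L4 (the earlier of 2 columns with that heading, at place 19 of the table), W2 L8, W2 L12 and K1 H12. They were set beside the 4 libraries headed W1 L2, W2 L2, K1 L2 and K3 L2.

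In the headings, W1 and W2 are wild-type (WT) lines, K1 and K3 are AMPK double-knockout (DKO) lines, L is 2.5 mM glucose (LG), H is 25 mM glucose (HG), and the final number is the day of embryoid body culture. All cells were of C57Bl/6 background. By heading, the members are WT at LG day 4, WT at LG day 8, WT at LG day 12 and DKO at HG day 12, and the libraries beside them are 2 WT and 2 DKO lines at LG day 2. Before embryoid bodies were formed, the stem cells of every group were kept with leukaemia inhibitory factor (LIF) on irradiated feeder cells and then passaged without feeders. Embryoid bodies were formed in medium without LIF. Each genotype rests on 2 lines, and no source used here says that libraries of 1 line came from separate experiments.

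The thresholds were passed by 8 of the 30 columns headed day 4 to day 12, not by the 4 members alone. The other 4 were K3 L4, K3 H4 and the later-listed columns headed W1 H4 and W2 H4, with Pou5f1 at 615, 612, 517 and 559 RPKM. The member nearest the Pou5f1 threshold was W2 L12, at 342 RPKM. The column nearest to joining was the later-listed K1 H4, with Pou5f1 at 355 and Afp at 0.019 RPKM, and the next was the later-listed K1 L4, at 475 and 0.555 RPKM. Since Pou5f1 and Afp chose the members, and day 2 was chosen as their partner with these values known, the differences between members and day 2 are given as descriptions without a test.

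Mouse embryonic stem cells in LIF are in the naive state of pluripotency, held by factors such as KLF4, ESRRB and TFCP2L1. Once LIF is withdrawn they pass through a formative state, in which naive factors are lost and OTX2, FGF5 and the de novo DNA methyltransferases are gained while OCT4 is still present, and only then form germ layers. High Pou5f1 with no Afp is therefore shared by naive and by formative cells. Txnip, which encodes an inhibitor of thioredoxin and of glucose uptake, and Arrdc4, a related arrestin gene, are induced by the glucose sensors MondoA and ChREBP.

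Depths lay between 14950000 and 22900000 reads in the members and between 12550000 and 17800000 in the LG day 2 libraries. At least 1 RPKM was reached by 11826 to 12189 genes in the members, and by 11471 to 11591 at LG day 2. Prkaa2 (chromosome 4, 105029650 to 105109898, mm10), a catalytic AMPK subunit gene, was at 2.71 RPKM in W2 L4, 0.416 in W2 L8, 0.04 in W2 L12 and 0.555 in K1 H12, against 1.76 in W1 L2, 1.32 in W2 L2, 0.041 in K1 L2 and 0.187 in K3 L2. By a threshold of 1 RPKM, 1 of 4 members and 2 of 4 day 2 libraries were above it, so the libraries headed W2 L8 and W2 L12 went against their WT headings while K1 H12 was low as headed. Prkaa1, the other catalytic subunit gene, was at 10, 6.96, 8.34 and 7.19 RPKM in W2 L4, W2 L8, W2 L12 and K1 H12, against 10.8, 7.26, 5.38 and 4.01 RPKM at LG day 2, with overlap. Where the alleles were cut is not known here, and a gene value can include reads outside a deletion.

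The line markers gave a further disagreement. Y-linked Ddx3y, an RNA helicase gene, was at 5.86, 15.6, 1.04 and 14.9 RPKM in W2 L4, W2 L8, W2 L12 and K1 H12, against 2.92, 6.64, 1.19 and 12.9 RPKM in W1 L2, W2 L2, K1 L2 and K3 L2. Imprinted Meg3 was at 0.216, 58.9, 33.7 and 90.8 RPKM in these members, against 38.9, 0, 47.2 and 53.9 RPKM in these day 2 libraries. W2 L4 lay near W2 L2 in both genes, whereas W2 L8 and W2 L12 did not and K1 H12 did not lie near K1 L2. In Ddx3y, W2 L12 lay nearest K1 L2, and W2 L8 and K1 H12 lay nearest K3 L2. Headings are used below as names only. Differences of line, day and glucose between the members and the day 2 libraries cannot be told apart.

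No column offers a secure undifferentiated reference. Of the columns headed as stem cells (HES), W2 HES had Afp at 240 RPKM and K3 HES at 3043, with Pou5f1 at 31.2 and 10.9 RPKM. W1 HES and K1 HES had Afp at 2.36 and 1.73 RPKM, with Pou5f1 at 607 and 311 RPKM. Txnip was at 0.465, 0.997 and 2.18 RPKM in W1 HES, W2 HES and K3 HES, low for their HG labels, and at 36.5 RPKM in K1 HES. The clearest naive pattern was in 3 columns headed HG day 2. Klf4, a naive factor induced by LIF, was at 78.1, 55.4 and 112 RPKM in W1 H2, W2 H2 and K3 H2, and Fgf5, a ligand of the formative epiblast, was at 0.021, 0.336 and 0.071 RPKM. K1 H2 stood apart from them, with Klf4 at 11.8 and Fgf5 at 2.44 RPKM. The lines of these columns are not secure either. Prkaa2 was at 0.423 RPKM in W2 H2 against its WT heading, and at 2.38 RPKM in K1 H2 against its DKO heading. Meg3 was at 0.166 RPKM in W1 H2 and at 38.9 in W1 L2.

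Against these columns, the members did not look undifferentiated. Klf4 was at 5.35 RPKM in W2 L4, 6.59 in W2 L8, 11.3 in W2 L12 and 6.08 in K1 H12, against 11.7, 8.74, 9.55 and 8.78 RPKM in W1 L2, W2 L2, K1 L2 and K3 L2. Fgf5 was at 11.7, 11.3, 5.76 and 33.4 RPKM in the members, against 5.87, 7, 7.8 and 6.74 RPKM at LG day 2. Both genes overlapped between the sets, with 3 members below every day 2 library in Klf4 and 3 above every one in Fgf5. Otx2, a transcription factor of the formative state, was at 52.4, 62.3, 65.5 and 72.9 RPKM in the members, against 36.5, 35.9, 77.9 and 34.7 RPKM at LG day 2, and at 0.386 to 29.3 RPKM in the 4 columns headed HG day 2. The label of undifferentiated libraries was thus not borne out by these markers, and the members are called here by their rule.

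**Figure D1:**
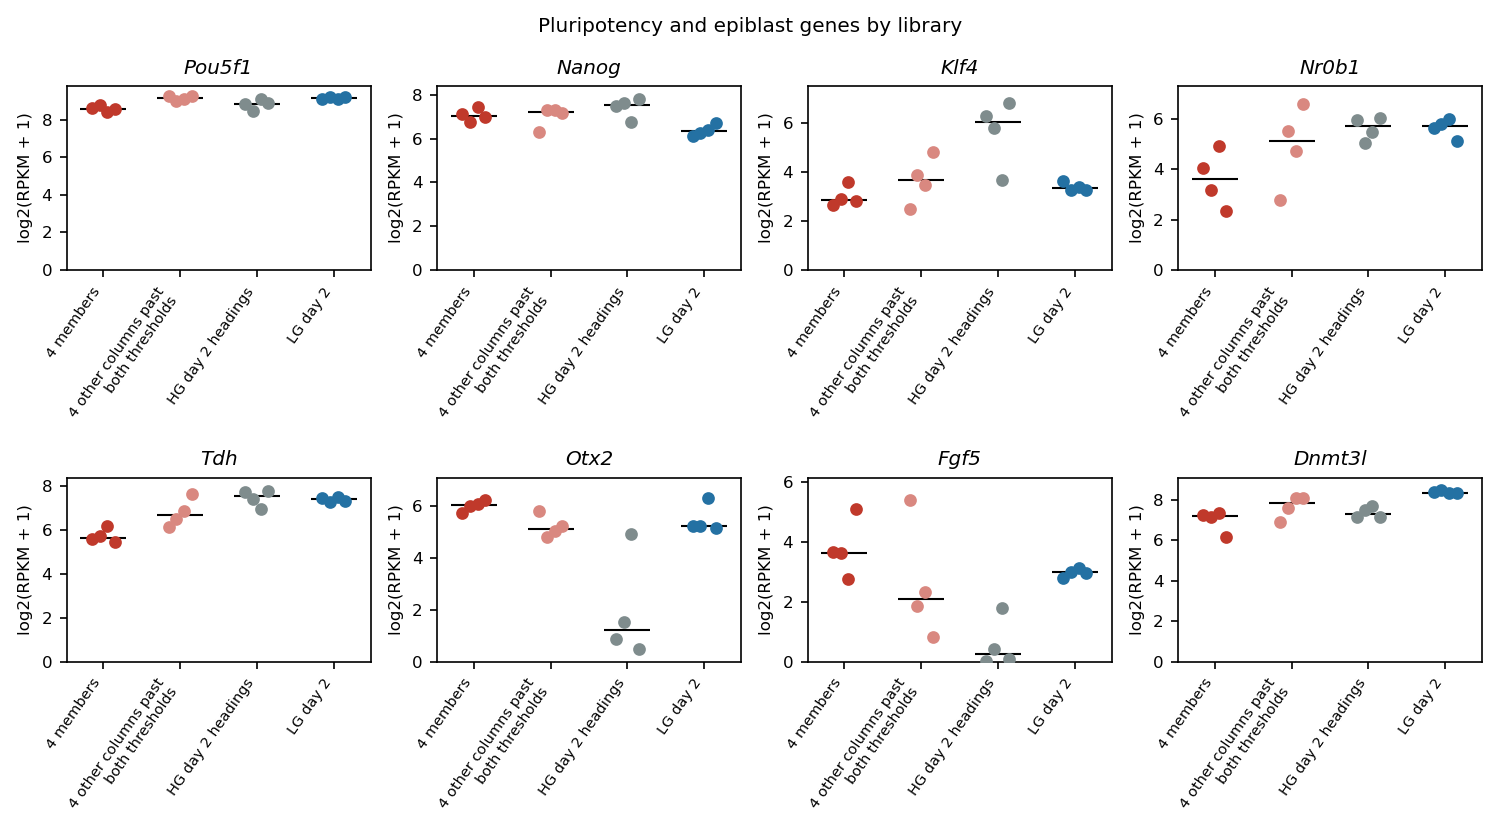
Level of 8 pluripotency and epiblast genes, as log2(RPKM + 1), in the 4 member libraries, the 4 other columns that pass both thresholds, the 4 columns headed HG day 2 and the 4 libraries headed LG day 2. Points are libraries and bars are medians of 4. In Nr0b1, Tdh and Dnmt3l every member lies below every LG day 2 library, and in Klf4 and Otx2 3 of the columns headed HG day 2 stand apart from both sets.

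The core pluripotency factors differed in different directions between the sets. Pou5f1 (chromosome 17, 35506032 to 35510777) was at 397 RPKM in W2 L4, 445 in W2 L8, 342 in W2 L12 and 381 in K1 H12, against 560, 589, 546 and 594 RPKM in W1 L2, W2 L2, K1 L2 and K3 L2. All members were lower, with a difference of medians of -0.56 on the log2(RPKM + 1) scale, which is the scale of every difference below. Nanog (chromosome 6, 122707489 to 122714633), a homeobox partner of OCT4, was at 137, 107, 172 and 124 RPKM in the members, against 67.7, 76.1, 84 and 105 RPKM at LG day 2. All members were higher, by 0.70, and by 0.40 when only the 3 members and 2 day 2 libraries with Prkaa2 below 1 RPKM were used. Sox2, the third core factor, was at 161, 168, 188 and 114 RPKM in the members and 118, 134, 132 and 141 RPKM at LG day 2, where the sets overlapped.

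Over the whole table, 12483 genes reached 1 RPKM in at least 2 of the 8 libraries. All 4 members lay above all 4 day 2 libraries in 2721 genes (21.8%) and below them in 1547 (12.4%), with a median difference of 0.06 over all genes. Under median-of-ratios scaling the counts were 1985 and 2297, so the balance of directions depends on the scaling. At least 2-fold apart as well were 315 genes higher (2.52%) and 158 lower (1.27%) in the members. These became 249 higher and 218 lower with median-of-ratios scaling, while quantile scaling gave 194 higher and 205 lower. With all 8 columns that pass the thresholds, a set chosen after the data were seen, 19 and 27 genes were left.

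Of 17 general pluripotency genes, all of which passed the filter, 7 were lower in every member (41.2%, beside 12.4% of all genes) and 1 higher (Nanog), with a median of -0.44. Pou5f1 is among the 7, and since it chose the members its place there adds no support. The lower ones included L1td1, an RNA-binding protein gene of pluripotent cells, at 111, 127, 111 and 81.3 RPKM in W2 L4, W2 L8, W2 L12 and K1 H12, against 251, 264, 229 and 203 RPKM at LG day 2 (-1.1). Gdf3, a TGF-beta family ligand of pluripotent cells, was at 20.5, 24.1, 36.9 and 16.3 RPKM in the members, against 56.3, 48.3, 67.3 and 51.9 RPKM at LG day 2 (-1.24). K1 H12 was the lowest member in both genes. Dppa2, a chromatin factor of early embryos, had a difference of -0.86, and Dppa4, Lin28a and Trim28 were lower by less.

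Of 23 naive genes, 6 were lower in every member (26.1%, beside 12.4% of all genes), 1 was higher (Cdh1, 0.19, the epithelial cadherin) and 16 overlapped, with a median of -0.56. Nr0b1 (chromosome X, 86191775 to 86195944), which encodes the nuclear receptor DAX1, was at 15.9 RPKM in W2 L4, 8.04 in W2 L8, 29.5 in W2 L12 and 4.04 in K1 H12, against 49, 54.7, 62.8 and 34.2 RPKM in W1 L2, W2 L2, K1 L2 and K3 L2 (-2.10). Tdh, the threonine dehydrogenase on which mouse stem cells rely for one-carbon units, was at 47.2, 52.4, 72.8 and 43.6 RPKM in the members, against 178, 157, 181 and 162 RPKM at LG day 2 (-1.75). W2 L12 was the highest member in both genes and K1 H12 the lowest. Jam2, an adhesion molecule, differed by -1.45, Manba, a lysosomal mannosidase on the naive list, by -1.31, and the LIF-driven factor Tfcp2l1 by -0.74.

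W2 L12 was also the highest member and K1 H12 the lowest over the list as a whole. The median level of the 23 naive genes, as log2(RPKM + 1), was 4.32 in W2 L4, 3.79 in W2 L8, 4.69 in W2 L12 and 3.59 in K1 H12, against 4.82, 4.78, 5.03 and 4.71 in W1 L2, W2 L2, K1 L2 and K3 L2. In the columns headed HG day 2 it lay between 4.85 and 5.52. Every member was below every library of both of these sets. Other genes of the list overlapped between the sets, among them Esrrb (26.2 to 69.6 RPKM in members, 65.6 to 98.2 at LG day 2), Klf2 (43.7 to 75.2, against 74.8 to 112), Zfp42 (13.6 to 20.8, against 19.8 to 25.2) and Dppa3 (42.1 to 60, against 16.8 to 54.7). Under median-of-ratios scaling 11 naive genes were lower in every member, beside 2297 of 12483 genes in all. Without W2 L12 or without K3 L2 it was 10, beside 1883 and 2034 of all genes, against 1547 with every library. With all 8 columns none of the 23 was, beside 210 of all genes.

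Formative genes showed no common direction. Of 20 such genes, 1 was higher in every member and 1 lower, with a median of -0.06. At 5% each way, both counts were below the 21.8% of all genes higher and 12.4% lower. Dnmt3l (chromosome 10, 78049959 to 78063622), the cofactor of the de novo DNA methyltransferases, was at 152, 139, 164 and 70.5 RPKM in W2 L4, W2 L8, W2 L12 and K1 H12, against 330, 358, 325 and 323 RPKM at LG day 2 (-1.17). Every member lay far below the lowest day 2 library. The methyltransferase genes themselves overlapped, with Dnmt3a at 25.7 to 53.2 RPKM in members and 40.5 to 59.1 at LG day 2, and Dnmt3b at 150 to 304 and 214 to 313 RPKM. The higher gene was Foxn4, a forkhead factor gene, at 1.9 to 3.25 RPKM in members and 0.598 to 1.74 at LG day 2 (0.83). Of 10 genes of DNA methylation and demethylation, Dnmt3l alone separated the sets (10% lower, near the 12.4% of all genes).

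Whether these genes move with time was tested in other libraries, LG day 4 against LG day 2 in the 4 lines, with the member column W2 L4 left out and genotype in the model. This comparison shares its day 2 libraries with the one above, so values are given side by side only. By limma, 1957 of 12750 genes (15.3%) rose and 618 (4.85%) fell at an adjusted p below 0.05. Under median-of-ratios scaling the counts were 1074 and 1199, and that scaling moved the median of all genes to -0.03, against 0.11 as deposited. With the line as a block, 2901 genes rose and 928 fell. Among genes named here, Arrdc4 (0.81, limma adjusted p = 0.0439) and Krt7 (0.84, adjusted p = 0.0385) then came to pass upwards. Ankrd37 (-0.61, adjusted p = 0.0358) and Ier3 (-0.65, adjusted p = 0.0351) did so downwards. Without W1, 472 genes rose and 167 fell, and without W2 449 rose and 172 fell.

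At LG day 4, Nr0b1 fell by 1.98 ± 0.35 (SE, limma adjusted p = 0.00718), Tdh by 0.88 ± 0.13 (adjusted p = 0.00369), Jam2 by 1.63 ± 0.19 (adjusted p = 0.00199) and Dnmt3l by 1.17 ± 0.11 (adjusted p = 0.00144). Fgf5 rose by 2.12 ± 0.13 (adjusted p = 0.000482). Pou5f1 was at -0.24 ± 0.16 (adjusted p = 0.31) and Nanog at -0.16 ± 0.15 (adjusted p = 0.489), and neither passed. Sox2 fell by 0.69 ± 0.13 (adjusted p = 0.00869), although it did not separate the members from LG day 2. Without line W1 or W2, Nr0b1 was at -2.02 and -1.89 and no longer passed (adjusted p = 0.0572 and 0.0608), nor did Sox2, at -0.63 and -0.59 (0.0709 and 0.0702), while Tdh, Jam2, Dnmt3l and Fgf5 passed without any 1 line. Without K1, or with the 5 day 4 columns in which Txnip is below 5 RPKM, Nanog fell (-0.36, adjusted p = 0.0373 and 0.0374).

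Of the 23 naive genes, 14 fell and 1 rose at LG day 4, with a median of -0.88. Of the 20 formative genes 7 rose and 2 fell, with a median of 0.43. Among all genes tested, 4.85% fell and 15.3% rose. With the line as a block 16 naive genes fell, with Klf4 (-0.67, adjusted p = 0.0229) and Klf5 (-0.61, adjusted p = 0.0112) added, and 8 formative genes rose. Without W1 or without W2 the 14 became 5 and the 7 became 2. Of 51 genes examined one by one that were called at LG day 4, 31 lost the call without W1 and 29 without W2, where 3 residual degrees of freedom are left in place of 5. All of them kept their direction, with differences at 78.6% to 114% and at 75.2% to 126% of those in the 4 lines. Lef1, an effector of Wnt signalling, was the other formative gene that fell, with Dnmt3l. The largest rises were Cyr61, a matricellular protein gene (2.99 ± 0.31, adjusted p = 0.00154), the actin-binding gene Tagln (2.89 ± 0.15, adjusted p = 0.00037), the tubulin gene Tubb4a (2.49), Amot, which encodes a regulator of Hippo signalling (2.4), and Nes, the intermediate filament nestin (2.38). The largest falls were the noncoding Halr1 (-2.70 ± 0.66, adjusted p = 0.0241), H2-M5 (-2.07), Nr0b1, Sept1 (-1.88) and Morc1, a germline chromatin gene (-1.76). Without W1 or without W2, Halr1 (adjusted p = 0.136 and 0.113) and Sept1 (0.111 and 0.11) no longer passed, and without W1 neither did H2-M5 (0.0518).

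In the 5 day 4 columns with Txnip below 5 RPKM, Nr0b1 lay between 5.85 and 26.2 RPKM, Tdh between 69.7 and 123, Dnmt3l between 120 and 202 and H2-M5 between 1.86 and 5.21. The members lay at 4.04 to 29.5, 43.6 to 72.8, 70.5 to 164 and 1.9 to 5.03 RPKM for these genes. The ranges of members and day 4 overlapped in all 4 genes, each of which fell at LG day 4. Genes that rose there were less uniform in the members. Fgf5 and Tagln overlapped between members and LG day 2, with Tagln at 27.3 RPKM in K1 H12 and 1.35 to 2.81 in the other members. Nes was higher in every member, at 13.7 RPKM in K1 H12 and 1.98 to 3.08 in the others. A sixth day 4 column, the earlier-listed K1 L4, had Txnip at 96.3 RPKM against its LG heading, and without it 2120 genes rose and 694 fell.

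The largest difference among the named genes was in Txnip (chromosome 3, 96557957 to 96561857), at 237 RPKM in W2 L4, 65.2 in W2 L8, 190 in W2 L12 and 71.5 in K1 H12, against 0.338, 0.285, 0.282 and 0.11 RPKM in W1 L2, W2 L2, K1 L2 and K3 L2 (6.52). Arrdc4 (chromosome 7, 68741593 to 68749238) was at 30.2, 12.2, 28.9 and 11.7 RPKM in the members, against 0.703, 0.292, 1.08 and 0.618 RPKM at LG day 2 (3.58). In both genes W2 L4 and W2 L12 were the high members and W2 L8 and K1 H12 the low ones. High Txnip stands against the LG headings of W2 L4, W2 L8 and W2 L12 and in step with the HG heading of K1 H12. The predicted gene Gm15441, named here after its values were seen, overlaps Txnip on the other strand and was at 21 to 80.8 RPKM in members and 0.095 to 0.141 RPKM at LG day 2. The kit did not mark strand, so reads of the overlapping pair cannot be told apart.

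The 250 bases before the start of the 2 arrestin genes are shown because they have the largest differences among the named genes. They come from RefSeq on GRCm38.p6 and run 5′ to 3′ on the strand of the gene, at chr3:96557707-96557956 (plus strand) for Txnip and chr7:68749239-68749488 (minus strand) for Arrdc4. Capitals mark in Txnip a pair of CACGNG motifs with 5 bases between them, the paired E-boxes of a carbohydrate response element, and in Arrdc4 the motif CACGTG, a single E-box.
Txnip: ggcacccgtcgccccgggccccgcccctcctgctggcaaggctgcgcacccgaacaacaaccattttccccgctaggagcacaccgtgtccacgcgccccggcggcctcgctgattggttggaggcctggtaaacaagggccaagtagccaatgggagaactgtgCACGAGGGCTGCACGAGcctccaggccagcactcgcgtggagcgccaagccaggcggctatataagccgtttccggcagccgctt
Arrdc4: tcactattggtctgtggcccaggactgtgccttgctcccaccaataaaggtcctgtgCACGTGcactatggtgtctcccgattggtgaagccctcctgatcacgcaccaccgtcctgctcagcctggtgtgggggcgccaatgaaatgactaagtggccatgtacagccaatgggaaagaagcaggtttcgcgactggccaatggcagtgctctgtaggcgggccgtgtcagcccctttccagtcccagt
Searched on both strands, the paired motif was present in 15 of 32851 RefSeq windows of this length (0.0457%) and the single E-box in 1978 (6.02%). The paired motif of Txnip begins 85 bases before the start and the E-box of Arrdc4 193 bases before it. Among 225 genes at least 2-fold higher in every member that had a window, 18 held the E-box (8%) and 1 the paired motif (0.444%). A match describes the letters only.

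Of the 8 genes of the glucose-responsive arrestin and MondoA/ChREBP list, 5 were higher in every member (62.5%, beside 21.8% of all genes). None was lower, and the median was 0.86. Besides the 2 arrestin genes the 5 were the Krüppel-like factor genes Klf11 and Klf10, and Mlxipl, which encodes ChREBP. High Txnip in the members was known when the members and the list were chosen, so its place among the 5 adds no support. Klf11 was at 14.8, 10.2, 14.7 and 18.6 RPKM in W2 L4, W2 L8, W2 L12 and K1 H12, against 3.71, 3.96, 3.48 and 2.63 RPKM at LG day 2 (1.78). Klf10 was at 18.4 to 30.6 RPKM in members and 10.4 to 14.2 at LG day 2 (1.07). Mlx and Mlxip, the partner of ChREBP and the gene of MondoA, overlapped between the sets.

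How these genes respond to glucose was tested in libraries that neither set shares, lines W1 and K3 at HG against LG on days 8 and 12. By limma with genotype and day in the model, 720 of 13694 genes (5.26%) were higher and 220 (1.61%) lower at HG. Under median-of-ratios scaling the counts were 537 and 480, and with the line and day pair as a block they were 570 and 133. Without W1 the counts were 72 and 5, against 1524 and 924 without K3. Txnip averaged 72.3 ± 47.6 RPKM at HG and 0.583 ± 0.425 at LG (SD, n = 4 libraries each), a difference of 5.28 ± 0.42 (SE, limma adjusted p = 0.00786). Arrdc4 averaged 18.2 ± 15 RPKM at HG and 1.69 ± 0.779 at LG (2.44 ± 0.32, adjusted p = 0.0171). Klf11 averaged 11.8 ± 1.32 RPKM at HG and 5.74 ± 0.295 at LG (0.93 ± 0.09, adjusted p = 0.00786). Klf10 was at 0.98 ± 0.23 and did not pass (adjusted p = 0.0518).

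Most of these calls were lost without line W1, although the differences kept their direction. Of 32 genes examined one by one that were called for glucose, 8 still passed without W1 and 27 without K3, and Txnip, Gm15441 and Krt7 were among the 7 that passed both ways. Each of these repeats has 1 residual degree of freedom in place of 4. In the 24 genes that lost the call without W1, the differences were 44.3% to 121% of those in both lines, with a median of 84.8%. Without W1, Arrdc4 was at 1.63 (adjusted p = 0.0596), Klf11 at 0.85 (0.0743), Got1l1 at 1.45 (0.0741) and Rras at 0.89 (0.0529). The largest rises at HG after Txnip were the cardiac muscle genes Myl7 (4.78), Actc1 (4.49) and Myh6 (3.5) and the gut hormone gene Pyy (3.39), none of which is among the 10 largest differences of the members. The largest falls were the mesoderm factor gene T (-1.61), the heat shock genes Hspa1a (-1.45) and Hspa1b (-1.26), the neuronal tubulin gene Tubb3 (-1.43) and Aldh1a2, of retinoic acid synthesis (-1.20), of which T was the one that passed without W1, and it did not pass without K3 (adjusted p = 0.054).

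Of the 315 genes at least 2-fold higher in every member, 301 were tested for glucose, and 106 of them were called higher at HG and 0 lower. That is 35.2% of the tested list and 14.7% of the 720 calls, beside 5.26% of all genes, and the median difference of the list was 0.57 beside 0.05 for all genes. Of the 158 lower genes 140 were tested, and 20 were called lower at HG (14.3% of the list, 9.09% of the 220 calls) and 2 higher, with a median of -0.3. With the line and day pair as a block these counts of shared direction were 91 and 14. Without line W1 they were 13 and 0, and without K3 they were 149 and 46. Got1l1, an aspartate aminotransferase-like gene, differed by 2.82 between the sets and by 1.86 ± 0.28 between HG and LG (adjusted p = 0.0205), and Rras, a small GTPase gene, by 2.06 and by 1.41 ± 0.22 (adjusted p = 0.023).

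**Figure D2:**
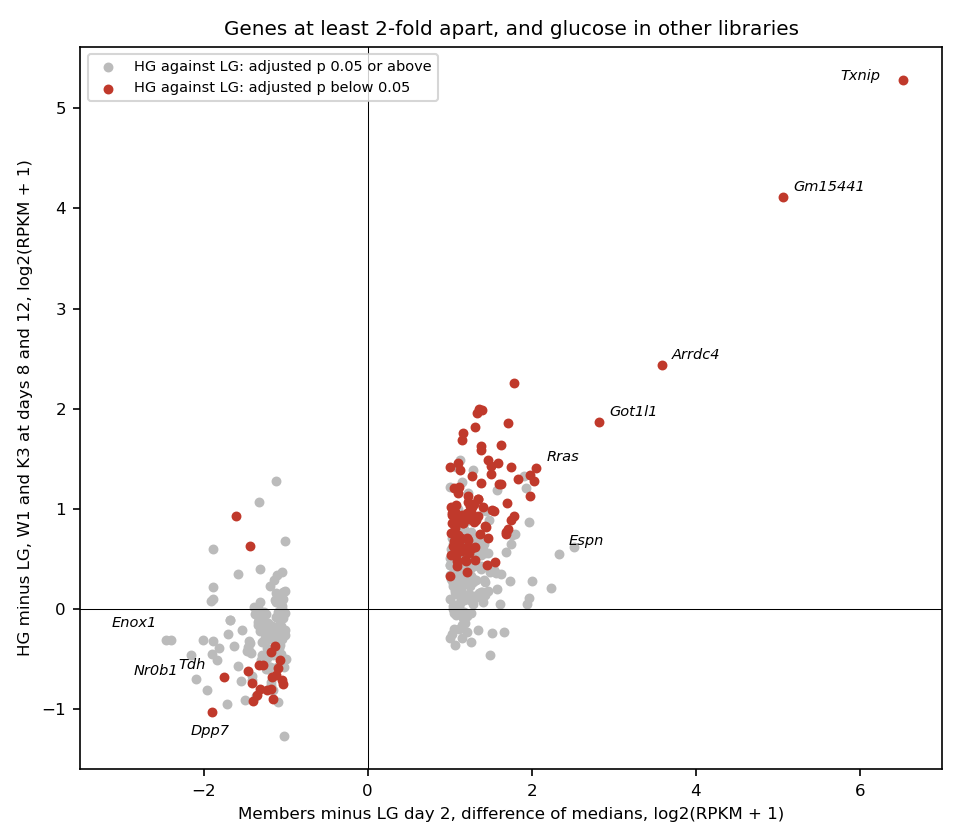
Genes at least 2-fold apart between the members and LG day 2 without overlap. The horizontal axis is the members minus LG day 2 (difference of medians, log2(RPKM + 1)) and the vertical axis is HG minus LG in lines W1 and K3 at days 8 and 12, which share no library with the horizontal axis; red points passed the glucose test. Txnip, Gm15441, Arrdc4 and Got1l1 lie far out on both axes, and Enox1 and Nr0b1, which did not pass the glucose test, lie at -2.46 and -2.10 on the horizontal axis.

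Of the naive genes, 2 of 23 were lower at HG (Klf5 and Tdh) and 1 was higher (Cdh1), beside 1.61% and 5.26% of all genes. Tdh averaged 23.3 ± 10.4 RPKM at HG and 36.7 ± 15.2 at LG, a difference of -0.68 ± 0.15 (SE, limma adjusted p = 0.0438; 0.0675 with the block). Without W1 none of the 3 passed. Nr0b1 was at -0.70 ± 0.21 and did not pass (adjusted p = 0.0836), and without K3 it did (0.0234). Dnmt3l was at -0.23 ± 0.27 (adjusted p = 0.6). None of 16 general pluripotency genes passed in either direction. Without K3, 4 of 14 were lower, among them Pou5f1 (-0.79, adjusted p = 0.0387) and L1td1 (-0.85, adjusted p = 0.0161), and 1 was higher. Among all genes, 924 were then lower and 1524 higher.

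The 10 largest differences in each direction pass over predicted genes, small RNA genes and line markers, some of which differed as much. Upwards, the arrestin genes were followed by Got1l1, at 15.7, 7.4, 15.6 and 17.2 RPKM in W2 L4, W2 L8, W2 L12 and K1 H12, against 0.964, 1.3, 1.42 and 2 RPKM at LG day 2, and Espn, the actin-bundling protein espin, at 18, 11.8, 7.07 and 18.9 RPKM in members, against 2.01, 2.21, 0.806 and 4.01 RPKM (2.33). Pdlim3, an actin-associated LIM protein gene, was at 6.41, 9.29, 3.76 and 15.9 RPKM in members, against 0.864, 0.71, 0.86 and 1.72 RPKM at LG day 2 (2.23). No member overlapped with day 2 in these genes. Krt18, an epithelial keratin gene, followed with 60.4, 21.5, 25.4 and 80.6 RPKM in members, against 11, 12.7, 6.67 and 7.14 RPKM at LG day 2 (2.03). Rras, Copz2 of the coatomer coat (2.01), the autophagy gene Wipi1 (1.98) and the glutathione transferase Gstm3 (1.97) completed the set. Wipi1 was also higher at HG (1.13 ± 0.2, adjusted p = 0.0268), and did not pass without W1 (adjusted p = 0.0829).

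The largest difference downwards among the genes kept was in Enox1, an oxidase gene of the cell surface, at 3.26, 3.48, 4.39 and 1.27 RPKM in W2 L4, W2 L8, W2 L12 and K1 H12, against 23.1, 24.9, 23 and 8.26 RPKM in W1 L2, W2 L2, K1 L2 and K3 L2 (-2.46). Aoah, an enzyme that inactivates bacterial lipid A, was at 1.57 to 4.42 RPKM in members and 13 to 14.9 at LG day 2 (-2.15). These 2 genes fell at LG day 4 as well, by 1.64 ± 0.3 (SE, limma adjusted p = 0.00859; 0.0672 without W1 and 0.0624 without W2) and 1.43 ± 0.15 (adjusted p = 0.00156). Nr0b1, Zmat4 (-2.08), Zfp936 (-1.95) and Ankrd45 (-1.92) were next among these. The lysosomal peptidase gene Dpp7 (-1.90) and Renbp, of amino sugar metabolism (-1.90), were not called in the test of LG day 4 (adjusted p = 0.504 and 0.502), and Dpp7 was lower at HG (-1.03 ± 0.23, adjusted p = 0.0443; 0.0677 with the block and 0.176 without W1). Dusp27 (-1.89) and the major histocompatibility gene H2-M5 (-1.89) completed the 10.

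**Figure D3:**
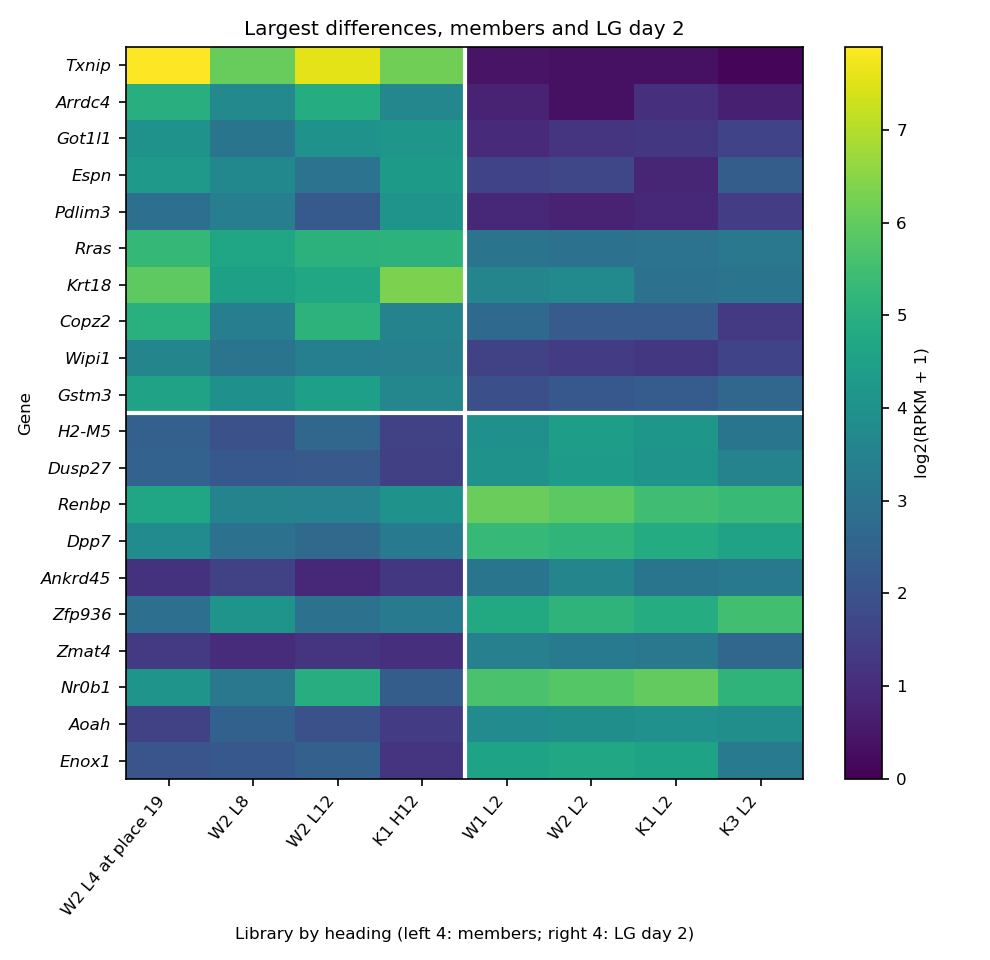
Level, as log2(RPKM + 1) in colour, of the 10 genes with the largest differences in each direction among genes that separate the 4 members (left) from the 4 LG day 2 libraries (right), with predicted genes, small RNA genes and line markers passed over. Txnip runs from 65.2 to 237 RPKM in members and from 0.11 to 0.338 RPKM at LG day 2, and Enox1 from 1.27 to 4.39 RPKM in members and from 8.26 to 24.9 RPKM at LG day 2.

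Of 20 genes of the unfolded protein and integrated stress responses, 11 were lower in every member (55%, beside 12.4% of all genes), none was higher and 9 overlapped, with a median of -0.58. Hspa5 (chromosome 2, 34772090 to 34776529), the chaperone BiP of the endoplasmic reticulum, was at 201, 220, 249 and 214 RPKM in W2 L4, W2 L8, W2 L12 and K1 H12, against 406, 454, 532 and 546 RPKM at LG day 2 (-1.17). Pdia4, a disulfide isomerase of the same compartment, was at 66.3, 38.9, 87.1 and 34.7 RPKM in members, against 133, 150, 197 and 91 RPKM at LG day 2 (-1.46). The transcription factor genes Xbp1 (-0.80) and Atf4 (-0.35) and the cystine transporter gene Slc7a11 (-0.78) were lower too. At HG, 3 of 19 of these genes were lower by limma, beside 1.61% of all genes, and none of them was without W1. The 3 were Hspa5 (-0.43 ± 0.09, limma adjusted p = 0.0404, and 0.0527 with the block), Pdia4 (-0.62 ± 0.09, adjusted p = 0.0174) and Hsp90b1. At LG day 4, 4 of 20 fell, beside 4.85% of all genes. With the line as a block 8 fell, Pdia4 (-0.53, limma adjusted p = 0.00329) and Xbp1 (-0.58, adjusted p = 0.0105) among those added. The 4 included Hspa5 (-0.37 ± 0.09, adjusted p = 0.0246; 0.101 without W1, 0.119 without W2 and 0.146 without the K1 L4 column high in Txnip).

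Targets of p53 had a median of 0.86, with 4 of 14 higher in every member (28.6%, near the 21.8% of all genes) and 1 lower. Without W2 L4 or without K3 L2, 8 were higher, beside 3011 and 3184 of all genes, against 2721 with every library. Btg2, an antiproliferative gene, was at 10.7, 18.2, 16 and 34 RPKM in W2 L4, W2 L8, W2 L12 and K1 H12, against 3.67, 2.97, 5.27 and 8.78 RPKM at LG day 2 (1.74). Bbc3, the apoptosis gene of PUMA, was at 16.3, 24.2, 17.5 and 32.7 RPKM in members, against 4.67, 4.96, 6.3 and 10.5 RPKM at LG day 2 (1.71). In both genes K3 L2 was the highest day 2 library. Trp53 itself was lower (-0.57). At LG day 4, 7 of these 14 genes rose and 1 fell, beside 15.3% and 4.85% of all genes. With the line as a block 8 rose, and 4 rose without W1 or without W2. At HG 2 were higher by limma, beside 5.26% of all genes, and none was without W1. The 2 were Bbc3 (0.79 ± 0.14, limma adjusted p = 0.028) and Zmat3.

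Of 13 hypoxia-inducible genes that passed the filter, 7 were higher in every member (53.8%, beside 21.8% of all genes) and none lower (median 0.60). Ddit4, the mTORC1 inhibitor REDD1, was at 233, 244, 125 and 333 RPKM in W2 L4, W2 L8, W2 L12 and K1 H12, against 72.5, 84.3, 76.3 and 117 RPKM at LG day 2 (1.56). Ndrg1, P4ha1 and Ankrd37 were next, at 0.78 to 0.83. Under median-of-ratios scaling 2 of the 13 were higher in every member, a share near that of all genes (1985 of 12483). Of 22 glycolysis genes 3 were higher (13.6%, below the 21.8% of all genes), Aldoc (1.5), Hk1 (1.09) and Aldoa (0.53). The 2 lower ones were Pgam1 and Eno1 (9.09%, below the 12.4% of all genes), and the median was -0.09. Aldoc was higher at HG as well (1.34 ± 0.24, limma adjusted p = 0.0291, and 0.0689 without W1).

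With all 8 columns that pass the thresholds, no gene of the general pluripotency, naive, hypoxia and p53 lists separated the sets, 2 of 20 stress response genes did, and 1 of the 8 glucose-responsive genes did. Over all genes, 554 were then higher and 210 lower. The separations above thus do not extend to every column with high Pou5f1 and no Afp, which does not make them particular to the 4 members. Txnip was at 0.663 RPKM in K3 L4 and 1.55 in K3 H4, but at 128 and 42.5 RPKM in the later-listed W1 H4 and W2 H4. The median level of the naive genes was 3.35 to 5.15 in these other columns, a range that spans the 3.59 to 4.69 of the members.

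**Figure D4:**
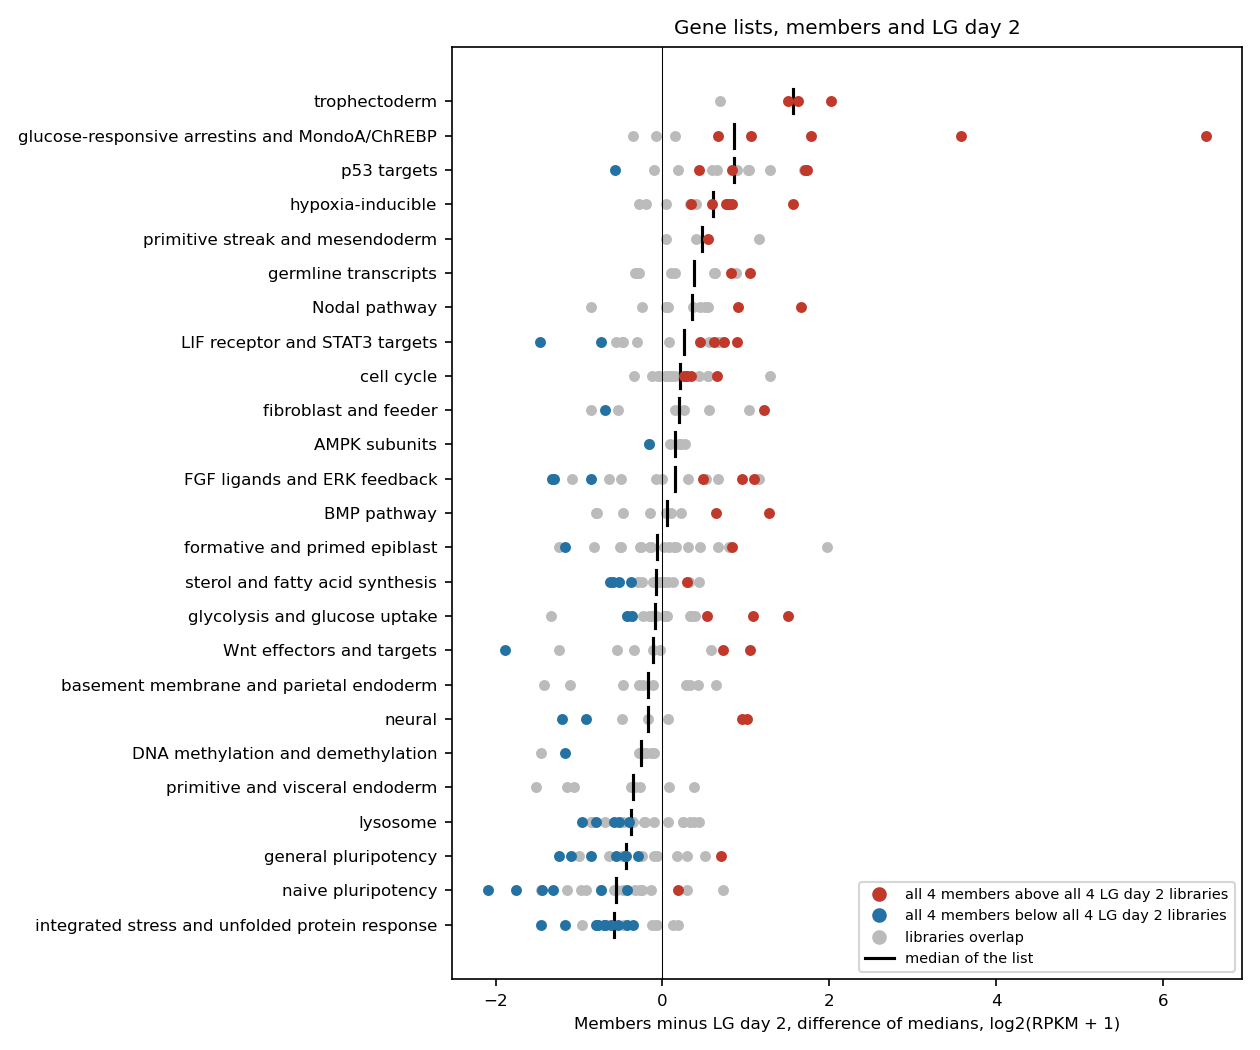
Difference between members and LG day 2 for each gene of 25 lists, on the log2(RPKM + 1) scale, with lists in order of their medians (black bars). Red points are genes in which all 4 members lie above all 4 LG day 2 libraries, blue points those in which they lie below, and grey points overlap; the glucose-responsive, p53 and hypoxia lists lie to the right and the stress response and naive lists to the left.

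Lysosomal genes, to which the title of the series points, were lower in 5 of 20 (25%, beside 12.4% of all genes) and higher in none, with a median of -0.38. Without W2 L4, 10 were lower, beside 1689 of all genes, against 1547 with every library. Ctsl, the protease cathepsin L, was at 103, 72.9, 89.7 and 89.9 RPKM in W2 L4, W2 L8, W2 L12 and K1 H12, against 263, 193, 162 and 128 RPKM at LG day 2 (-0.97). Lamp1, the abundant membrane protein of lysosomes, was at 172, 109, 112 and 152 RPKM in members, against 281, 240, 216 and 192 RPKM at LG day 2 (-0.80). The 2 day 2 libraries headed WT were the highest in both genes. Lamp1 was also lower at HG (-0.62 ± 0.11, adjusted p = 0.0303; 0.111 without W1). Npc2, a cholesterol carrier of lysosomes, was also lower (-0.40), and the transcription factor genes Tfeb and Tfe3 overlapped between the sets, with Tfeb at 1.8 to 2.26 RPKM in members and 1.99 to 2.99 at LG day 2, and Tfe3 at 33 to 47.5 and 44.3 to 51.1 RPKM.

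Signalling genes gave mixed directions, in counts to be read beside the 21.8% of all genes higher and 12.4% lower. Of 16 genes of FGF and ERK feedback, the inhibitors Spry4 (-1.30), Spry2 and Dusp4 (-1.33) were lower in every member, and Ier3 (1.10), Fos and Spry1 were higher. Spry4 was at 6.17, 7.18, 6.52 and 2.04 RPKM in W2 L4, W2 L8, W2 L12 and K1 H12, against 28.5, 20.8, 14.1 and 13.4 RPKM at LG day 2. Among 14 genes of LIF and STAT3 signalling, Myc was lower, at 4.87, 5.96, 6.82 and 3.19 RPKM in members, against 20.3, 19.2, 14.4 and 9.24 RPKM at LG day 2 (-1.46). The kinase gene Pim1 (0.90), Icam1, Bcl3 and Jak1 were higher, and Socs3, the feedback inhibitor of the pathway, overlapped at 2.82 to 5.44 and 1.58 to 3.36 RPKM.

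Of 11 Nodal pathway genes 2 were higher in every member, among them the protease gene Furin (0.90), and of 9 BMP genes 2 were higher, the ligand Bmp7 (1.28) and the inhibitor Smad6. Of the Wnt genes, Tcf7, an effector, was higher (1.05), at 42.6 to 46.7 RPKM in members and 18.2 to 25 at LG day 2, with Nkd1, and Notum, a secreted inhibitor, was lower, at 1.13 to 2.41 and 6.5 to 11.9 RPKM (-1.88). Of 18 cell cycle genes 4 were higher (22.2%, near the share of all genes), Ccnd3 most (0.65), of 16 sterol and fatty acid genes 4 lower, Fasn most (-0.62), and 1 higher, and of 6 AMPK subunit genes 1 lower (Prkab1, -0.16).

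Markers of endoderm and basement membrane did not separate the sets, whereas a few genes of other cell type lists did. These small counts are to be read beside the 21.8% of all genes higher and 12.4% lower. Of 17 primitive streak genes 4 passed the filter, and Mesp2 was the one that separated the sets (25%, near the 21.8% of all genes). It was at 0.474 to 2.08 RPKM in members and 0.082 to 0.335 at LG day 2. Mesp2 passed the filter through members alone, so its separation adds no support. Of 18 genes of primitive and visceral endoderm 8 passed and none separated the sets. The summed level of the list was 267 to 1136 RPKM in members and 454 to 1095 at LG day 2. Afp, on which the members were chosen, was the 1 gene at 0 in all. None of 12 basement membrane genes separated the sets either. Of 14 neural genes 7 passed, of which Nes (0.96) and Neurod1 (1.01) were higher and Sox1 (-1.21) and Pax6 (-0.91) lower, 28.6% each way. Of 16 fibroblast and feeder genes 8 passed, with Thy1 higher (1.22) and Dcn lower (-0.69), 12.5% each way. Summed levels of this list were 78.6 to 108 RPKM in members and 91.8 to 124 at LG day 2. The trophectoderm list, summed, was at 60.8 to 131 RPKM in members and 16.2 to 33.3 at LG day 2. It was at 31.1 to 87.9 RPKM in the columns headed HG day 2 and 17.5 to 66 in the other 4 columns past the thresholds. Of its 10 genes 4 passed the filter, and the rest were too low to compare. Krt18, Krt7 (1.63) and Tfap2c (1.51) were higher of the 4 (75%, beside 21.8% of all genes). Krt18 and Krt7 were higher at HG too (1.28 ± 0.2, adjusted p = 0.0236, and 1.63 ± 0.21, adjusted p = 0.0149), and Krt18 not without W1 (adjusted p = 0.0743). No gene of the 2-cell-like list passed the filter, and of 10 germline genes Sycp3 (1.05) and Ddx4 (0.83) were higher (20%, near the 21.8% of all genes). The part of these cell types in the other differences was not tested. In bulk samples, fewer cells of a type and less RNA per cell cannot be told apart.

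The members also differed among themselves. Pearson correlations across 14989 genes, which are not independent replicates, were 0.968 to 0.987 between members, 0.979 to 0.991 between LG day 2 libraries and 0.948 to 0.977 between the sets. W2 L4 was most like the later-listed K1 H4 (0.992), W2 L8 like the later-listed W2 H4 (0.987), W2 L12 like W2 L4 (0.987) and K1 H12 like W2 L8 (0.984). No member had an LG day 2 library among its 3 nearest.

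K1 H12 stood furthest out. In it alone, 70 genes were at least 2-fold above and 19 at least 2-fold below all other members, against 20 and 10 for W2 L4, 6 and 11 for W2 L8, and 19 and 16 for W2 L12. Genes named for a single member were chosen after their values were seen. Tagln was at 27.3 RPKM in K1 H12 and 1.35 to 2.81 in the other members, and Nes at 13.7 and 1.98 to 3.08 RPKM, both among the largest rises at LG day 4. Fgf8, a ligand of the primitive streak, was at 22.4 RPKM in K1 H12, 5.71 in W2 L8 and at most 0.603 in the other members. Fgf4, the FGF ligand of pluripotent cells, was at 18.8 RPKM in K1 H12 and 51.6 to 70.5 in the others.

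W2 L4 differed from the other members in imprinted genes of chromosome 6. Mest was at 39.1 RPKM in W2 L4, 0.441 in W2 L8, 1.84 in W2 L12 and 0.648 in K1 H12, against 36.7, 56.7, 3.31 and 0.361 RPKM in W1 L2, W2 L2, K1 L2 and K3 L2. Peg10 was at 47.8, 0.039, 3.26 and 0.161 RPKM in the members, against 51.2, 68.6, 3.99 and 0.055 RPKM at LG day 2. In both genes W2 L4 lay with the 2 day 2 libraries headed WT, and the other members lay with those headed DKO, as their Prkaa2 did. Among libraries with Prkaa2 below 1 RPKM only, 308 genes were at least 2-fold higher in members and 170 lower, of which 236 and 109 are also in the sets of 315 and 158. Txnip then differed by 5.93 and Arrdc4 by 2.85.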

How the data were processed

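Messenger RNA of mouse ES cell lines and embryoid bodies was made into TruSeq libraries that keep no strand information, per the labels' protocols, so overlapping and antisense genes and near-identical copies are uncertain. RPKM values of 24225 genes were deposited for 42 libraries, per the file headers, on mm10. Among the tools in the submitters' processing notes, whose roles are not stated there, are R 3.1.1, edgeR 3.6.8, HOMER, STAR 2.4.0k and, for read quality, FastQC 0.11.2. Low values were whole multiples of 1 read within 0.1 read in 100% of cases, which gave depths of 10500000 to 25500000 reads. Intervals from counts are not given, and no count model was run.

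The members, their partners, 28 gene lists and all settings were chosen with earlier results of these data known. Columns were assigned by heading alone, 6 headings stand over 2 columns, and 0 columns were left unused. A gene was kept where 2 or more of the libraries compared reached 1 RPKM, so a low gene can be kept through the set in which it is high. Differences are on log2(RPKM + 1), which understates those of low genes. Members and LG day 2 are compared by medians and by whether the 4 and 4 libraries overlap, with no test. The 2 tested comparisons used limma 3.58.1 (R 4.3.3) with a mean-variance trend, 5 residual degrees of freedom for time and 4 for glucose, and Benjamini-Hochberg adjustment over all genes, with 0.05 as threshold; the code was tested on simulated data. P-values measure only the spread between these libraries, which may be technical. Libraries of 1 cell line pair across days and glucose levels. Deviations of a line from its genotype mean correlated between days at 0.446 in WT and 0.473 in DKO. Block values are therefore given beside calls of single genes that they change and beside several of the counts, not beside every count. Named genes are 7 fixed ones, the 10 largest differences each way with a median of at least 5 RPKM in the higher set, up to 4 per list, and 5 rises and falls per tested comparison, passing over predicted genes, small RNA genes and line markers; values of other list genes are also given, and a few genes that the rule names are not reported here. The alternatives were pseudocounts, filters, scalings, blocks and left-out libraries.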

Additional observations from a re-analysis of the deposited data

Results flagged for a closer look

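Of 102 genes examined in the members and in LG day 2, 204 groups of 4 libraries in all, 12 held a library far from the other 3. Chance alone gives about 1 in 20, which is near this share, so the libraries below are listed as values only. Among the members, Got1l1 was at 7.396 RPKM in W2 L8, against 15.6 to 17.2 RPKM in the other members, Nes at 13.706 RPKM in K1 H12, against 1.98 to 3.08 RPKM, and Notum at 2.407 RPKM in W2 L12, against 1.13 to 1.3 RPKM. The member W2 L4 stood above the others in Pim1 (86.635 RPKM, against 46.3 to 52.8 RPKM) and in Smad6 (1.851 RPKM, against 1.27 to 1.35 RPKM).

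At LG day 2, K3 L2 stood above the others in Pdlim3 (1.718 RPKM, against 0.71 to 0.864 RPKM) and below them in Enox1 (8.264 RPKM, against 23 to 24.9 RPKM). K1 L2 stood above the others in Otx2 (77.877 RPKM, against 34.7 to 36.5 RPKM), Xbp1 (74.22 RPKM, against 49.1 to 53.3 RPKM) and Dcn (4.253 RPKM, against 1.27 to 1.78 RPKM), and below them in Pim1 (14.362 RPKM, against 26.6 to 27.3 RPKM). W1 L2 stood above the others in Prkab1 (17.283 RPKM, against 14.7 to 15 RPKM). Without K1 L2, Otx2 would separate the members from LG day 2.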

How the results depend on the processing

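For the members and LG day 2, genes at least 2-fold apart numbered 745 higher and 274 lower with a pseudocount of 0.1, 194 higher and 205 lower under quantile scaling, and 19 higher and 27 lower with all 8 columns that pass the thresholds, which also gave 554 genes higher and 210 lower at any size. Leaving out 1 library gave 316 to 397 genes at least 2-fold higher and 156 to 225 lower. For LG day 4, quantile scaling gave 901 rises and 933 falls, and median-of-ratios scaling gave 1074 and 1199. With the line as a replicate block there were 2901 rises and 928 falls. Leaving out 1 line gave 449 to 1898 rises, lowest without W2, and 167 to 715 falls, lowest without W1. For glucose, 374 genes were higher and 89 lower at HG without a filter on low values, 480 were lower under median-of-ratios scaling, 469 were higher under quantile scaling, and 133 were lower with the replicate block. Leaving out 1 line gave 72 to 1524 genes higher and 5 to 924 lower. The causes of these shifts were not tested. Without K3, Tfap2c was higher at HG by 0.5564 and Fgf5 lower (-1.1598), against -1.0244 and 1.4165 without W1. No other of the 105 genes examined changed sign while called. Of 1151 repeats for 105 genes at LG day 4, 106 lost and 31 gained the call, and of 728 for glucose 49 lost and 21 gained it. Limits are the headings, which line markers and Txnip contradict, the 2 lines per genotype, and RPKM values without deposited counts.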
